A study of Drosophila melanogaster with 2 samples.

Results

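The genes for the proteins of the cytosolic ribosome were examined in a chromatin immunoprecipitation and sequencing (ChIP-seq) study of CG3065, a zinc finger protein grouped with the Sp/KLF family of transcription factors, in Drosophila melanogaster. Members were the protein-coding genes whose symbol begins RpL or RpS and continues with a number, the stalk genes written RpLP, and sta (stubarista), which encodes a small subunit protein under another name. There were 93 of them among 13945 protein-coding genes on the major chromosome arms, 54 for the large and 39 for the small subunit. All chromatin came from 1 group: a transgenic line that stably expressed CG3065 joined at its C-terminus to green fluorescent protein (GFP), sampled as whole embryos of mixed sex aged 0 to 16 h and precipitated with an antibody against GFP. There were 2 biological replicates, numbered 1 and 3. The embryos mixed all cell types and stages of that span, the protein followed was the tagged fusion, and control libraries were not analysed here. The deposited peak lists give no read counts, so the depth of each replicate is unknown.

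Ribosomal proteins are needed in nearly equal amounts in every cell, and in flies the loss of a single gene copy often gives the Minute phenotype of slow growth and short, thin bristles. Their promoters are known for a core element of their own, the polypyrimidine TCT initiator, which stands in place of the usual initiator and is served by the TBP-related factor Trf2. DREF, which binds the DNA replication-related element (DRE), and M1BP, which binds the core promoter element called motif 1, are known regulators of such promoters in flies. Many genes of this family also carry small nucleolar RNAs (snoRNAs), which guide the modification of ribosomal RNA, in their introns.

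The promoters shown next are examples, chosen for the reasons given below. They run from 100 bases upstream of a start site to 19 bases past it, 5′ to 3′ on the gene's own strand, in dm6, with the sequence taken from the RefSeq copy of the Release 6 genome. Capitals mark words found by search: the DRE (TATCGATA) and the Sp/KLF words (CACACCC or CACGCCC or CCCACCC or CCCGCCC) on either strand, and TCT initiator words (TCTTT or TCTTTT or TCTTTC or CCTTTT or CCTTTC) on the sense strand with their C within 10 bp of the start site. RpS27 and RpL23A are shown for their high signal, RpL27 as a promoter with both a TCT word and a DRE, and RpL36 as the member with an Sp/KLF word. RpL34b and RpL34a are the copies that both had a thresholded peak, RpS5a and RpS5b are copies of which only RpS5a had such a peak, and RpL40 had no peak in any list.
RpS27, chr3R:25247495-25247614, minus strand: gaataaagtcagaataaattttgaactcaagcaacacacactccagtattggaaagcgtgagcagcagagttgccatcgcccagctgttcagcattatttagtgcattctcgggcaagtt
RpL23A, chr3L:1668635-1668754, minus strand: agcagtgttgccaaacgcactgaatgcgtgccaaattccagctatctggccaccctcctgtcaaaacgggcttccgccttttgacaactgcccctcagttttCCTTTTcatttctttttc
RpL27, chr3R:25685032-25685151, minus strand: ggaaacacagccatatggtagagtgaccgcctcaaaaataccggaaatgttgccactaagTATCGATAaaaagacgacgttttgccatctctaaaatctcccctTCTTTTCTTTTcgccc
RpL36, chrX:629464-629583, minus strand: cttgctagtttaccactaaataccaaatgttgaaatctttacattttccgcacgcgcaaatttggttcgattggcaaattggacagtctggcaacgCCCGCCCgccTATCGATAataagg
RpL34b, chr3R:9401207-9401326, minus strand: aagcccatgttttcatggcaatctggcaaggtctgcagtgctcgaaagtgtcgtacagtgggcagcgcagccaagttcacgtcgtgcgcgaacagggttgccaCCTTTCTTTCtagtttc
RpL34a, chr3R:26059248-26059367, minus strand: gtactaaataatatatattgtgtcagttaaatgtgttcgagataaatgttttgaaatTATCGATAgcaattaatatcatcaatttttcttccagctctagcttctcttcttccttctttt
RpS5a, chrX:17148245-17148364, minus strand: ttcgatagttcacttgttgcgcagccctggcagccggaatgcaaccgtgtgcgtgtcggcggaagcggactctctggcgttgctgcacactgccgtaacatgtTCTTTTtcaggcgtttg
RpS5b, chr3R:14901544-14901663, minus strand: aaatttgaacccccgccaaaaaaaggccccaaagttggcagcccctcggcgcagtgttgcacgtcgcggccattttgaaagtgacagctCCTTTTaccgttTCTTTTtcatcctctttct
RpL40, chr2L:4227599-4227718, plus strand: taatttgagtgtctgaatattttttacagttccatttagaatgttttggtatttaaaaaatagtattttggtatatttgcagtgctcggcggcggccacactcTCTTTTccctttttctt
In RpL36 the word CCCGCCC spanned the printed start site and the DRE lay 6 bases past it, while in RpL27 the DRE ended 33 bases upstream. The printed start sites of RpL36 (chrX position 629483) and RpL34b (chr3R position 9401226) are those nearest the summit. Their main transcripts, used for the word counts below, start at 629416 and 9401202. Both main starts had TCTTT with its C within 10 bp, and that of RpL34b had none of the longer TCT words. RpS27 held none of the marked words in this stretch, and its peak was the highest of the family. RpL40 held a TCT word 3 bases past its start site and had no peak.

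The authors also applied a threshold by irreproducible discovery rate (IDR), a method that compares the ranks of peaks between replicates. The peaks past this threshold numbered 2451 and are called IDR peaks here. Each member's strongest IDR peak held the same rank by signal in the pooled relaxed list. An IDR peak need not rank alike in both replicates. That of RpS23 ranked 841 in the relaxed list of replicate 1 and 11155 in that of replicate 3. A gene was counted where the summit of such a peak lay within 500 bp of any of its annotated start sites. By this count 46 of the 93 ribosomal protein genes (49.5%) had an IDR peak, against 12% of all protein-coding genes. The 46 genes had 46 different strongest peaks, and RpL28 had a further peak, which made 47. In the pooled relaxed list of 30000 peaks, which the authors named as peaks and background, 82 of 93 members (88.2%) had a summit, against 49.3% of all genes. For the relaxed list of replicate 1 the count was 86 of 93 (92.5%), against 52% of all genes, and for that of replicate 3 it was 69 of 93 (74.2%), against 41.1%. An entry in a relaxed list need not mark binding. No test was made of these shares, since the family was chosen with results of these data known and its members are not replicates.

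Genes with several start sites offer more places for a peak, so the counts were also read by the number of start sites. Among members with 1 start site, 19 of 48 (39.6%) had an IDR peak, against 9.2% of all genes with 1 start site. Among those with 2 or more, 27 of 45 (60%) had an IDR peak, against 19.9% of all such genes. The members' share was above that of all genes in both classes. Members with a snoRNA gene inside them had an IDR peak in 17 of 29 cases (58.6%), and members without in 29 of 64 (45.3%). By chromosome arm the count was 7 of 19 on 2L, 11 of 21 on 2R, 8 of 14 on 3L, 12 of 23 on 3R, 7 of 15 on X and 1 of 1 on chromosome 4, where RpS3A is the sole member. The shares of all genes with a snoRNA gene inside them, or on each autosomal arm, were not counted. The split by snoRNA was also not made by number of start sites. These counts describe the family alone.

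**Figure D1:**
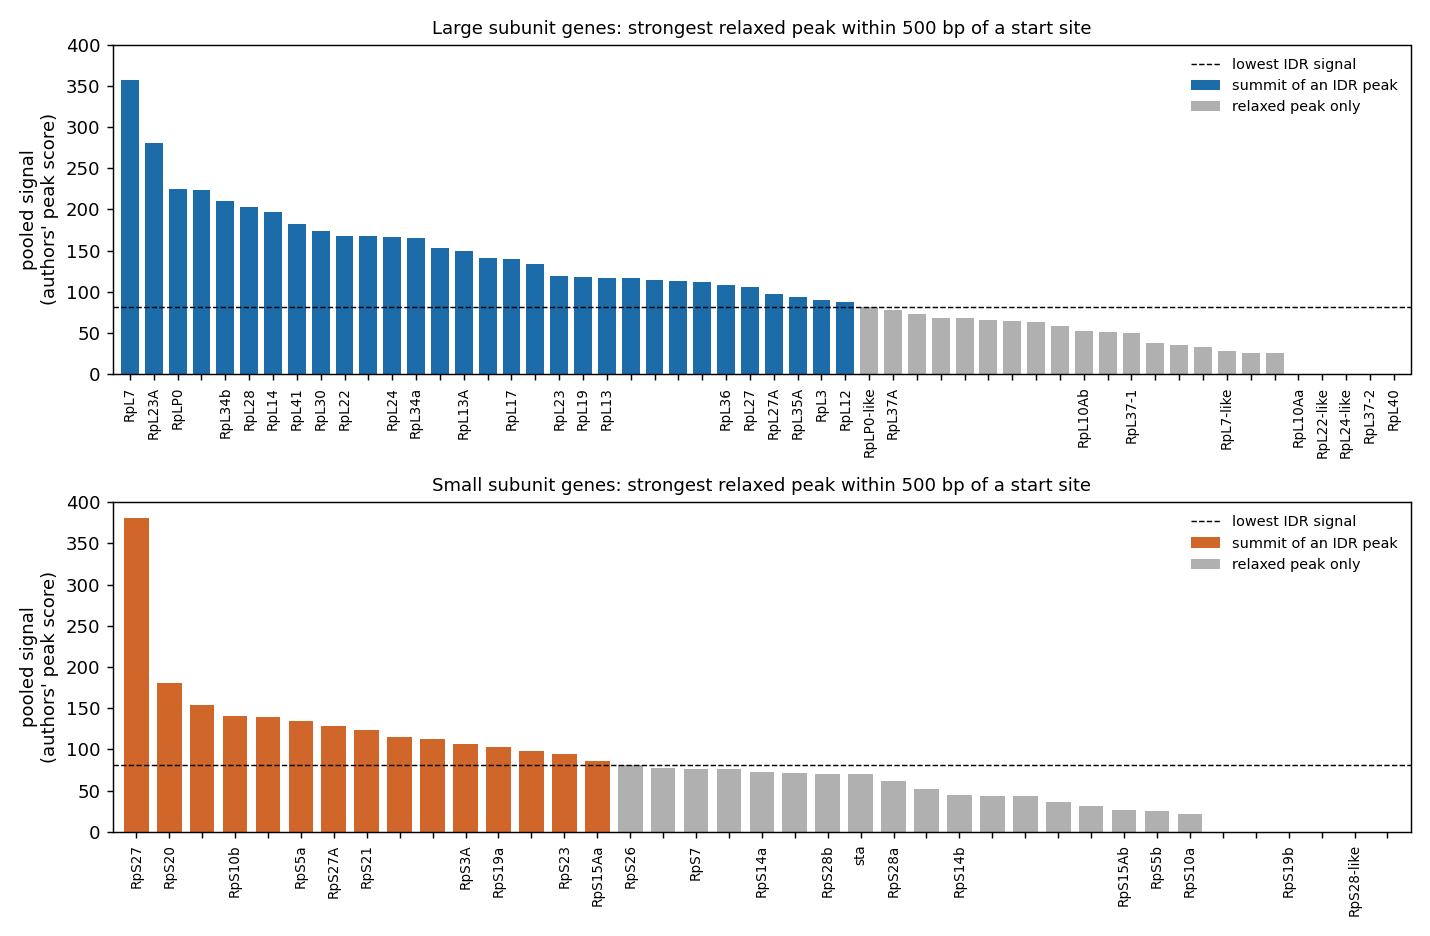
Bars give the authors' signal of the strongest pooled relaxed peak with its summit within 500 bp of a start site, for the 54 large subunit genes (upper panel) and the 39 small subunit genes (lower panel), with the names of genes described in the text; coloured bars are IDR peaks, grey bars relaxed peaks only, places without a bar are genes with no pooled relaxed peak, and the dashed line is the lowest signal of any IDR peak (81.3). The signals fall off gradually across that line, with RpL7 and RpS27 well above the others.

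Each peak has a signal, a score from the authors' peak caller that is used here only to describe and rank peaks within a list. In the family it ran without a gap across the threshold, as the plot of signal by gene shows. RpS27, a zinc-binding protein of the small subunit, had the highest value at 381 in the pooled list, 230.2 in replicate 1 and 151 in replicate 3. Its summit, at chr3R position 25247520, lay 6 bp upstream of the start of the gene (chr3R:25245955-25247514, minus strand, FBgn0039300) and was number 65 of the 2451 IDR peaks. RpL7, a large subunit protein, followed with 358 in the pooled list, 224 in replicate 1 and 127 in replicate 3. Its summit at chr2L position 10201048 lay 44 bp inside the gene, in the 5′ untranslated region. RpL23A, which contacts nascent chains at the exit tunnel, had 281 in the pooled list, 173 in replicate 1 and 104 in replicate 3, with its summit 80 bp upstream. These 3 genes stood highest in both replicates as well as in the pooled list.

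The next signals came mostly from the large subunit. RpLP0, the base of the ribosomal stalk that recruits elongation factors, had a pooled signal of 225, with 136 in replicate 1 and 80.5 in replicate 3. RpL34b had 209.7, with 119.7 in replicate 1 and 95.5 in replicate 3. Both were higher in replicate 1. RpL28 had 2 IDR peaks, at 58 bp and 281 bp upstream of its nearest start site, with pooled signals of 203 and 110.5. RpL14, RpL41 and RpL30 followed among the large subunit genes with pooled signals of 197, 182 and 174, and RpS20 of the small subunit had 181. RpL22, whose fly protein carries a histone H1-like extension, was the last of the 12 highest at 168.

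At the other end, the ribosomal genes straddled the threshold. The lowest pooled signals with an IDR peak were those of RpS15Aa (85.4), RpL12 (87.2), RpL3 (90.1), RpL35A (94.1) and RpS23 (94.9). RpL3 lines the peptidyl transferase centre and RpS23 the decoding centre. Among the highest pooled signals without an IDR peak were those of RpLP0-like (81.0), RpS26 (80.8), RpL37A (77.8) and RpS7 (76.0), all with summits within 70 bp of a start site. RpLP0-like ranked 2462 in the pooled list, just after the 2451 IDR peaks. Of the 47 members without an IDR peak, 36 had a pooled relaxed peak, with a median signal of 55.2 (range 21.7 to 81.0). In the replicates, 22 of the 47 had a relaxed peak in both, 18 in replicate 1 only and 1 in replicate 3 only. That 1 was RpS15Ab, named after its value was seen.

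The 11 members without a pooled relaxed peak were of several kinds. RpL10Aa, RpL22-like, RpL37-2, RpS28-like and RpL40 had no relaxed summit in any list. The first 4 are duplicate or derived copies, and RpL22-like is known to be enriched in the testis. RpL40 differs in being the sole fly gene of its kind, which encodes a ribosomal protein fused to ubiquitin. RpS27A, the other ubiquitin fusion of the ribosome, had an IDR peak of pooled signal 129, with 79.4 in replicate 1 and 49.95 in replicate 3, 73 bp upstream. The remaining 6 of the 11 had a relaxed peak in replicate 1, with signals of 15.4 to 32.6.

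Large and small subunit genes were compared next. Of the large subunit genes 31 of 54 (57.4%) had an IDR peak, and of the small subunit genes 15 of 39 (38.5%). The share of all protein-coding genes was 12%. The median pooled signal of those peaks was 141 for the large subunit (quartiles 113 and 178, n = 31) and 123.5 for the small (quartiles 105 and 139.8, n = 15), so the quartile ranges overlapped. In the pooled relaxed list 49 of 54 large (90.7%) and 33 of 39 small subunit genes (84.6%) had a summit, against 49.3% of all genes. For IDR peaks the order was the same among autosomal genes, with 28 of 48 for the large subunit (58.3%) and 11 of 30 for the small (36.7%), against 12.6% of all autosomal genes. On X it was 3 of 6 for the large subunit and 4 of 9 for the small, against 9.15% of all X-linked genes. The 2451 strongest peaks of replicate 1 alone gave 34 of 54 large and 21 of 39 small subunit genes, against 12.3% of all genes. Those of replicate 3 alone gave 26 of 54 large and 12 of 39 small subunit genes, against 11.8%. The large subunit had the higher share in each of these counts, and the difference was not tested.

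X-linked members were then set against autosomal members, since males carry a single X and the mixed embryos therefore hold less X than autosomal DNA. Of the X-linked genes 7 of 15 (46.7%) had an IDR peak, against 9.15% of all X-linked genes, and of the autosomal genes 39 of 78 (50%), against 12.6% of all autosomal genes. The median pooled signal was 135 on X (n = 7) and 134 on the autosomes (n = 39). The 7 X-linked genes were RpL22 (168), RpS10b (140), RpL17 (139.5), RpS5a (135), RpL36 (108), RpS19a (103) and RpS15Aa (85.4), in pooled signal. All 15 X-linked members had a pooled relaxed peak, against 50.8% of all X-linked genes, as did 67 of the 78 autosomal members (85.9%), against 49% of all autosomal genes.

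The X-linked counts of the replicates lay apart. Among the 2451 strongest peaks of replicate 1, 10 of 15 X-linked members had a summit, against 10% of all X-linked genes. Among those of replicate 3 it was 3 of 15, against 9.06%. The autosomal counts were also lower in replicate 3, with 45 of 78 members (57.7%) in replicate 1 and 35 of 78 (44.9%) in replicate 3. The shares of all genes in these lists were 12.3% and 11.8%. The 7 X-linked peaks had a median signal of 88.6 in replicate 1 and 36.7 in replicate 3. The autosomal peaks had 83.4 in replicate 1 (n = 39) and 48.7 in replicate 3 (n = 38). RpL17, which lies near the exit tunnel, had 113 in replicate 1 and 30.9 in replicate 3. With so few genes the X-linked count in replicate 3 rests on 3 members.

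**Figure D2:**
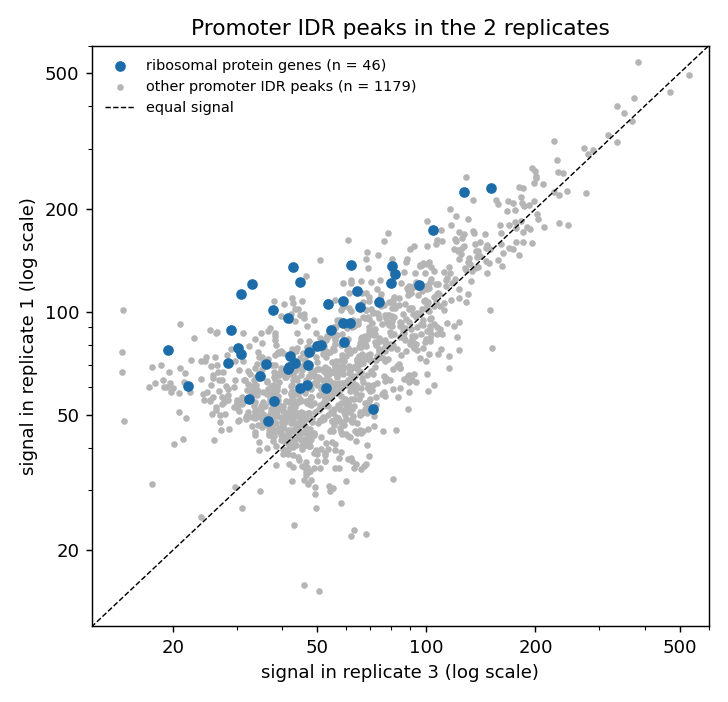
Each point is a promoter IDR peak with a relaxed peak within 200 bp in both replicates, placed by the authors' signal in replicate 3 (x axis) and replicate 1 (y axis), both on log scales; blue points are the 46 peaks of ribosomal protein genes, grey points the 1179 other promoter IDR peaks, and the dashed line marks equal signal. All but 1 of the blue points lie above the line.

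The plot of the replicates against each other shows a wider feature of the family. For 45 of the 46 ribosomal peaks with a value in both replicates, the signal was higher in replicate 1, and for the other promoter IDR peaks this held in 834 of 1179. The ratio of replicate 1 to replicate 3 had a median of 1.66 in ribosomal peaks (quartiles 1.52 and 2.28) and 1.18 in the others (quartiles 0.954 and 1.498). The signals come from separate lists with scales of their own, so the ratio was read only between peaks of the same lists. All 47 ribosomal peaks lay among the 2451 strongest of replicate 1 and 34 of them (72.3%) among those of replicate 3. Of the other promoter peaks 84.4% lay among the strongest of replicate 1 and 83.6% among those of replicate 3. Counted by gene, 55 of 93 members (59.1%) had one of the strongest peaks of replicate 1, against 12.3% of all genes, and 38 of 93 (40.9%) one of those of replicate 3, against 11.8%. In both replicates 35 members did. The share was above that of all genes in either replicate.

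Base composition was set beside this difference. The 101 bp around the summit had a median of 49.5% G and C in ribosomal peaks and 34.7% in the other promoter peaks. Among other promoter peaks with G and C at or above the ribosomal median, the ratio had a median of 1.31 (n = 145), and among those below it 1.16 (n = 1034). Ribosomal peaks at or above that median in G and C had a ratio of 1.68 (n = 24), and those below it 1.63 (n = 22). The part of base composition in the difference between replicates was not tested.

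The members at the extremes were ranked by the difference in percentile between the relaxed lists of the replicates. RpS21 stood higher in replicate 3, with 52.0 in replicate 1 and 71.2 in replicate 3. RpL23 was nearly even, with 59.7 in replicate 1 and 53.0 in replicate 3. RpS27 also differed little in percentile, near the top of both lists, although its signals, given above, had a ratio of 1.53 that was inside the quartiles of the family. The widest differences in percentile were those of RpS23 (77.1 in replicate 1 and 19.4 in replicate 3), RpL12 (60.5 in replicate 1 and 22.0 in replicate 3) and RpL19 (88.7 in replicate 1 and 28.9 in replicate 3). By the ratio of signals RpL13A and RpL30, named after their values were seen, and RpL17 stood wider apart than RpL12 and RpL19, with RpL13A at 121 in replicate 1 and 33.0 in replicate 3 and RpL30 at 135 in replicate 1 and 43.0 in replicate 3. RpS23 stood at percentile 97.2 of the relaxed list of replicate 1 and at percentile 57.5 of that of replicate 3. RpL27A had 83.4 in replicate 1, at its IDR summit, and no relaxed summit within 200 bp of it in replicate 3. The relaxed summit of RpL27A in replicate 3 lay 295 bp upstream of a start site with a signal of 38.0.

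**Figure D3:**
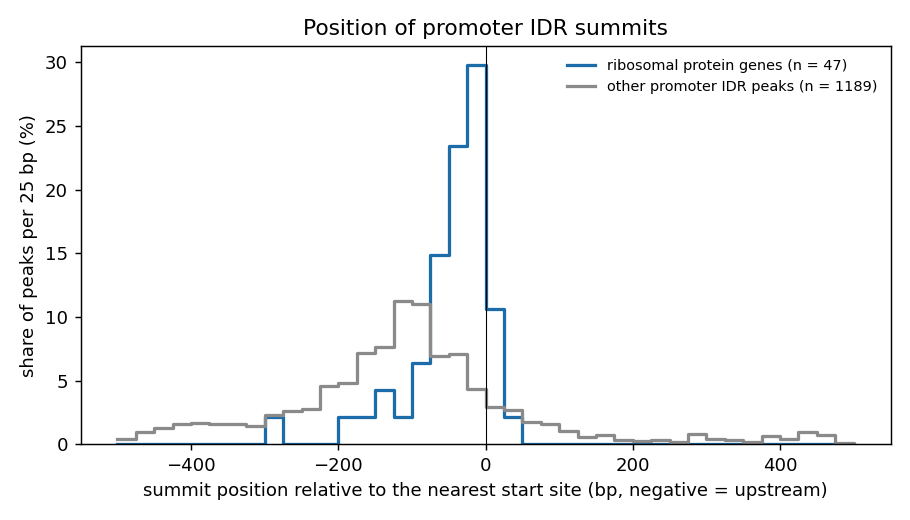
Share of promoter IDR peaks in bins of 25 bp by the position of the summit relative to the nearest start site of the gene (negative is upstream), for the 47 ribosomal peaks (blue) and the 1189 other promoter IDR peaks (grey). Ribosomal summits gather within 50 bp of the start site, mostly upstream of it.

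The summits of ribosomal peaks lay closer to start sites than those of other promoter IDR peaks, a difference given as a description. Ribosomal summits lay a median of 33 bp from the nearest start site of a member (quartiles 14.5 and 68.5, n = 47). The summits of the other promoter IDR peaks lay 124 bp from the nearest start site of any gene (quartiles 73 and 214, n = 1189). Within 50 bp lay 31 of 47 ribosomal summits (66.0%) and 203 of 1189 others (17.1%). Upstream of the start site were 41 ribosomal summits (87.2%), against 82.9% of the others, so both kinds lay mainly on that side. By the annotation 35 of the 47 ribosomal summits were between genes and 11 in a 5′ untranslated region of some transcript. The remaining summit, 66 bp upstream of RpL41, was in an intron of another gene. The farthest was the further summit of RpL28, at 281 bp from a start site of RpL28. A neighbour's start can be nearer than the member's, and for that summit this was not counted. As the plot of summit positions shows, the ribosomal distribution peaked at the start site and the other one about its median of 109 bp upstream.

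The difference in distance had the same direction in each split tried. In peaks near a single gene the median distance was 25 bp for ribosomal peaks (n = 20) and 174 bp for others (n = 708). In peaks near 2 or more genes it was 44 bp for ribosomal peaks (n = 27) and 92 bp for others (n = 481). Among the 2451 strongest peaks of replicate 1 it was 29 bp for ribosomal and 117.5 bp for other promoter peaks, and among those of replicate 3 it was 63 bp for ribosomal and 130 bp for other promoter peaks. At or above the ribosomal median in G and C, the median distance was 35.5 bp for ribosomal peaks (n = 24) and 107.5 bp for others (n = 146). Below that G and C value it was 33 bp for ribosomal peaks (n = 23) and 125 bp for others (n = 1043). In signal the family overlapped with other promoters, with a pooled median of 134 for ribosomal peaks (quartiles 111 and 167.5) and 120 for the others (quartiles 94.9 and 169). Of the 47 ribosomal peaks 5 were among the top 10% of the IDR list by signal (10.6%), against 11.9% of the other promoter peaks.

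More than 1 gene often had a claim to the same peak. For 26 of the 46 members with an IDR peak another protein-coding gene also started within 500 bp of the summit, and in 25 of these the neighbour lay on the opposite strand. In 23 of the 26 the member's own start site was the nearest. In the other 3 it was not: among them, at RpL34a the start of Trmt61 was nearer (106 bp, against 123 bp), and at RpL13 that of Dref (35 bp, against 49 bp). Dref encodes DREF itself. The peak of RpS27 was shared with Nup37, a nuclear pore gene whose start was 138 bp away, and that of RpL7 with Ripalpha at 74 bp. The stronger peak of RpL28 was shared with eIF1, an initiation factor gene, at 323 bp. The further peak of RpL28 also had another gene's start within 500 bp, and the counts of nearest genes above leave it out. Peaks shared by 2 or more genes were 27 of 47 in the family (57.4%), against 40.5% of the other promoter IDR peaks.

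**Figure D4:**
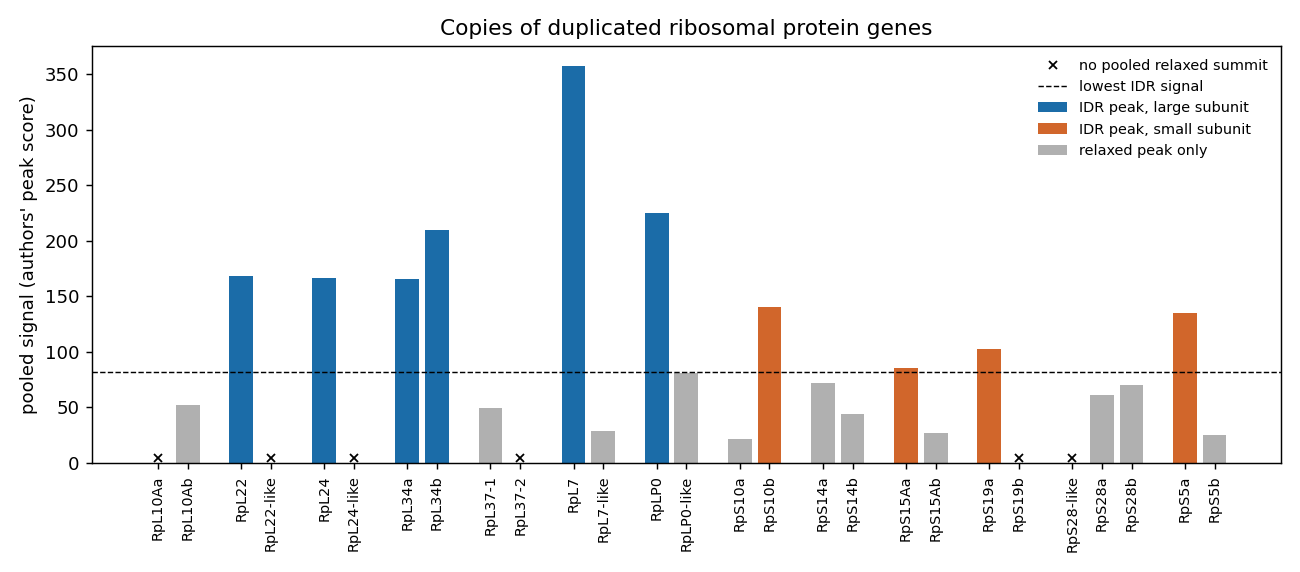
Bars give the authors' signal of the strongest pooled relaxed peak within 500 bp of a start site for the 27 members in 13 groups of duplicated genes, in blue (large subunit) or orange (small subunit) where it is an IDR peak and in grey where it is not; crosses are copies without a pooled relaxed peak and the dashed line is the lowest IDR signal. In 8 groups 1 copy rises above the line, in the RpL34 group both do, and in 4 groups none does.

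Several ribosomal proteins are encoded by duplicated genes. By their symbols alone 27 members fell into 13 groups, in which a -like gene need not encode a ribosomal protein. An IDR peak was found at 10 of these 27 genes (37.0%) and at 36 of the 66 other members (54.5%). As the plot of the copies shows, it was usually at a single copy of a group. Only the RpL34 group had IDR peaks at both copies, RpL34b with a pooled signal of 209.7 and RpL34a with 165, although the summit at RpL34a was nearer to Trmt61. RpL34b held a TCT word 3 bases past its printed start site, and RpL34a held a DRE that ended 36 bases upstream of the start site, as printed above.

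In 8 groups a single copy had an IDR peak. RpL7 (358) stood against RpL7-like (28.1), and RpLP0 (225) against RpLP0-like (81.0), in pooled signal, where the relatives of the -like genes in yeast act in ribosome assembly. RpL22 (168) stood against RpL22-like and RpL24 (166) against RpL24-like, neither of which had a pooled relaxed peak, though RpL24-like had 32.6 in replicate 1. RpS10b (140) stood against RpS10a (21.7), and RpS15Aa (85.4) against RpS15Ab (26.3). The RpS10a value was near the lowest of the pooled list (21.5), with no relaxed peak in either replicate. The relaxed peaks of RpL7-like, RpLP0-like and RpS15Ab also had another gene's start within 500 bp, as did the IDR peaks of RpL7, RpLP0 and RpS19a. RpS5a (135) stood against RpS5b (24.7), and RpS19a (103) against RpS19b, which had no pooled relaxed peak and 17.1 in replicate 1. RpS5b, RpS10a and RpS19b are known for expression in the germline, while their partners are expressed broadly. RpS5b held TCT words at its start site as RpS5a did.

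In 4 groups no copy had an IDR peak. RpS14a and RpS14b, which stand next to each other on X, had pooled relaxed signals of 72.1 and 44.1. RpS28b had 70.4 and RpS28a 61.2, with no peak at RpS28-like. RpL37-1 had 49.7 and RpL10Ab 52.3, with no peak at RpL37-2 or RpL10Aa. The pooled summits of RpS14a and RpL10Ab lay 255 and 257 bp upstream. Their peaks and that of RpS28a also had another gene's start within 500 bp, so these signals need not belong to the copy. Reads from identical stretches could be shared between copies or discarded. In the 500 bp centred on the start sites the longest run of bases identical between copies was 8 to 14 in all pairs but RpS15Aa and RpS15Ab, where it was 25. Inside the genes the run reached 193 bases for the RpS14 copies and 132 for the RpS15A copies, and 8 to 26 for the other pairs. How the authors treated reads with several matches is not given in the sources used here.

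**Figure D5:**
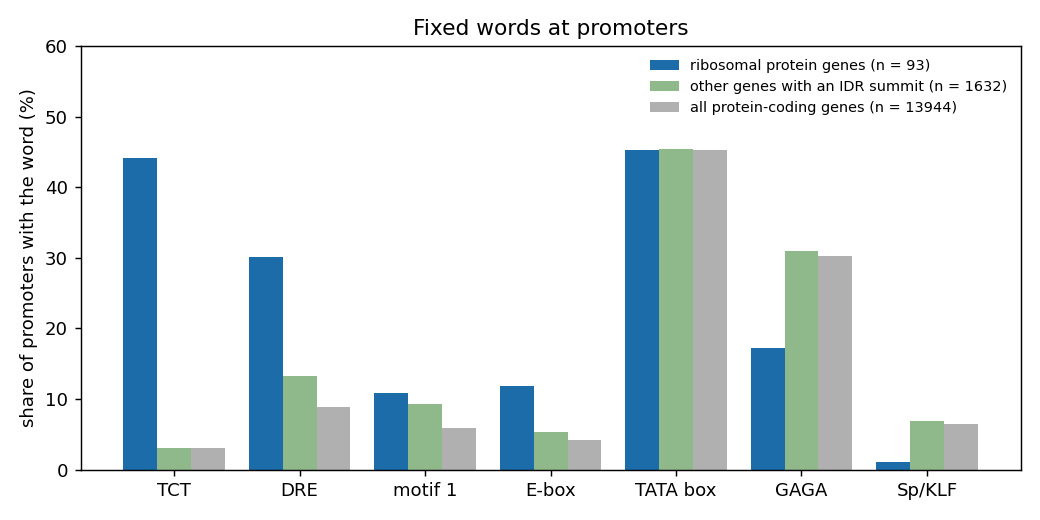
Share of promoters that hold each fixed word, for the 93 ribosomal protein genes (blue), the 1632 other genes with an IDR peak (green) and all 13944 protein-coding genes with a full window (grey); TCT is read within 10 bp of the start site and the other words in the 300 bp promoter on both strands. The TCT and DRE bars of the ribosomal genes stand above the others, and the GAGA and Sp/KLF bars below.

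The sequence of the promoters was searched for fixed words from 250 bp upstream to 50 bp downstream of the start of each gene's main transcript. A TCT initiator (TCTTT on the sense strand with its C within 10 bp of the start) was found in 41 of 93 ribosomal promoters (44.1%), against 3.00% of the 1632 other promoters with an IDR peak and 3.00% of all 13944 promoters. With 4 longer words, TCTTTT or TCTTTC or CCTTTT or CCTTTC, which were chosen after the data were seen, the share was 59.1% of ribosomal promoters, 2.94% of the others with an IDR peak and 2.88% of all. The DRE (TATCGATA, both strands) was found in 28 (30.1%), against 13.2% of the other promoters with an IDR peak and 8.94% of all. The E-box bound by Myc (CACGTG) was found in 11.8% of ribosomal promoters, 5.33% of the others with an IDR peak and 4.26% of all. Motif 1 (GGTCACACT, both strands) was found in 10.8% of ribosomal promoters, 9.25% of the others with an IDR peak and 5.87% of all. The TATA word TATAAA was found in 45.2% of ribosomal promoters, 45.4% of the others with an IDR peak and 45.3% of all. The GAGA word (GAGAG, both strands) was found in 17.2% of ribosomal promoters, 30.9% of the others and 30.2% of all.

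Words of the kind known to be bound by Sp/KLF proteins, CACACCC or CACGCCC or CCCACCC or CCCGCCC on either strand, were found in 1 of the 93 ribosomal promoters (1.08%), that of RpL36, against 6.92% of the other promoters with an IDR peak and 6.42% of all. Around the summits, in 101 bp, they were found in 1 of the 47 ribosomal peaks (2.13%) and 6.64% of the other promoter IDR peaks. In the same windows the DRE was found in 9 of 47 ribosomal peaks (19.1%), against 2.69% of the others. Motif 1 was found in 6.38% of ribosomal peaks, against 1.26% of the others, and the E-box in 6.38%, against 1.18% of the others. TATAAA was found around 8.51% of ribosomal summits and 21.5% of the others, and the GAGA word around 2.13% of ribosomal summits and 9.08% of the others. These words differ in base composition, as do the windows. The windows also covered different parts of the promoter. Their centres lay a median of 33 bp from a start site in ribosomal peaks and 124 bp in the others. The shares around summits therefore do not compare like positions. A missing word says only that these letters were not in the window.

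Within the family the words were also counted by whether the gene had an IDR peak. TCT was found in 23 of the 46 promoters with an IDR peak and 18 of the 47 without. The DRE was found in 13 with an IDR peak and 15 without, and the E-box in 5 with and 6 without. Motif 1 was found in 5 with and 5 without. The differences were of at most 5 genes and were not tested.

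Of 31 further genes of ribosome assembly and of the control of ribosomal protein genes, 30 were matched in the annotation, and 12 of these (40.0%) had an IDR peak, against 12% of all protein-coding genes. Of the 30, 24 had 1 start site, a class in which 9.2% of all genes had an IDR peak. At 7 of the 12 the gene's own start site was the nearest to the summit, and at the other 5, M1BP, Ns2, Ns1, Mybbp1A and Irbp18, that of a neighbour was nearer. Among the known regulators of these promoters, M1BP had a pooled signal of 151, at a summit 267 bp from its start and 126 bp from that of CG8202. Dref had 117 at the peak it shared with RpL13, while Trf2 and Myc had relaxed peaks only, with 37.4 and 41.4. Among factors of assembly, eIF6, which keeps immature large subunits from joining small ones, had the highest pooled signal at 346.5, with 160 in replicate 1 and 185 in replicate 3. Ns2, a nucleostemin-like GTPase, had 227.5, at a summit 161 bp from its start and 115 bp from that of POSH. Ns1, of the same kind, had 103, at a summit 59 bp from its start and 2 bp from that of mRpS11. Nopp140, a nucleolar chaperone of snoRNA particles, had 97.0, NHP2, a component of such particles, 90.7, and RIOK1, a kinase of small subunit maturation, 94.1. Mybbp1A had 108 at the peak it shared with RpL36, 275 bp from its own start and 15 bp from that of RpL36. Rack1, a scaffold protein on the small subunit, had 143, REPTOR, a transcription factor of the response to nutrients, 258, and Irbp18, a bZIP protein that pairs with Xrp1 in the response to loss of ribosomal protein genes, 187. The summit at Irbp18 was 180 bp from its start and 46 bp from that of APP-BP1. Of the rest, the box C/D snoRNA proteins Fib, Nop56 and nop5 had relaxed pooled signals of 71.0, 70.6 and 74.9, below every IDR peak.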

How the data were processed

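ChIP-seq peak lists of 2 biological replicates were used, in build dm6. Fragments of sonicated chromatin were 200 to 800 bp long, per the labels. Per the file records, the authors deposited relaxed lists of 30000 (replicate 1), 26271 (replicate 3) and 30000 (pooled) peaks and 2451 IDR-thresholded peaks, each with a signal, a −log10 q-value and a summit. For the aligner, caller, cutoffs and read filters: not given in the sources used here. The signal's scale differs between lists, and the pooled −log10 q went down to 0.0314. The labels do not say how the replicates were collected, and replicate numbers were used as names only. Files in dm3 were not used.

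Summits were joined to start sites of protein-coding genes of Ensembl release 115 (BDGP6 version 54), within 500 bp, keeping each gene's highest signal. A replicate value is the signal of the relaxed peak of that replicate nearest the IDR summit within 200 bp, or, without an IDR peak, the highest within 500 bp of a start site. For promoters with an IDR peak the printed sequence is placed by the gene's start site nearest its strongest summit. For promoters without an IDR peak it is placed by the start of the main transcript. Duplicated groups are members whose symbols match once a final lower-case letter, -like, -1 or -2 is removed. The joins were tested on simulated data. Counts, shares and medians are descriptions, and no test was run, since there was 1 group. The family, the lists and the words were chosen with earlier results of these data known. Named are the 12 highest and 5 lowest IDR signals, the 5 highest without an IDR peak, X-linked members with an IDR peak, duplicated members, members with several IDR peaks, with no match in a replicate, with no relaxed peak or with the largest differences in percentile between replicates (3 each way), and listed genes of ribosome assembly and control with an IDR peak; other names were chosen after their values were seen. In that list 2 symbols were matched by synonym, and 1 was not matched. It and 2 members that the naming rule picked are not reported here by name, though the members are in all counts. Alternatives changed the window, the gene a summit counts for, the start sites, the threshold, the overlap, the members and the replicates. Tools were pandas 2.3.3, scipy 1.17.1, numpy 2.4.6 and matplotlib 3.10.9 under Python 3.11.15.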

Additional observations from a re-analysis of the deposited data

How the results depend on the processing

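Of 81 values of 9 results under 9 alternatives, 70 stayed within the limits set for them. The limit for a count was a fixed fold change, within which a move from 15 to 21 small subunit genes was kept. The limit for a median was the standard deviation of the 2 settings that used a single replicate. The number within limits therefore depends in part on the alternatives themselves. With the stronger 50% of the IDR peaks, by signal, 30 members, 8 small subunit genes and 4 X-linked genes had a peak, and the median signal was 159. With the 2451 strongest peaks of a single replicate in place of the IDR peaks, the counts ranged from 38 to 55 for all members, 26 to 34 for the large subunit, 12 to 21 for the small subunit, 3 to 10 on X and 35 to 45 on the autosomes, each lowest without replicate 1. Under those settings the median signed distance ranged from -61.5 to -22 bp, the median signal from 51.4 to 77.1 on each list's own scale, the relaxed count from 69 to 86, and the groups with peaks at more than 1 copy from 1 to 2. Those groups numbered 2 with a window of 1000 bp and 0 when each summit was given to the closest gene alone, since the summit at RpL34a is nearer to Trmt61. In the 101 bp around the summits of the 47 ribosomal peaks, in place of the 300 bp promoters of all 93 members, the DRE share was 19.1%, the TATA share 8.51% and the GAGA share 2.13%, so both the window and the set differed. The cause of the other shifts was not tested. No paired analysis was possible because there was 1 group. Depth is unknown, and each gene's error rests on 2 values from lists with different scales.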
